A study of Mus musculus with 15 samples.

Results

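Neurexins, neuroligins and LRRTM proteins are cell adhesion molecules that hold the presynaptic and the postsynaptic membrane together and help to organize the synapse. They were followed here as 9 genes, Nrxn2, Nrxn3, Nlgn1, Nlgn2, Nlgn3, Lrrtm1, Lrrtm2, Lrrtm3 and Lrrtm4, chosen by name from the 54736 genes of a deposited table of TPM (a transcript level scaled by transcript length and by the total of the library). All 9 rows were found by gene ID, and all 9 passed the filter on low values, a 15-library mean of 1 TPM or more, which left 18656 genes to test. Total RNA came from tissue punches of the prefrontal cortex (its medial area, per the design text), taken from C57BL/6 males at an age of 8 to 10 weeks, and the labels name no treatment. The titles name 8 KO and 7 WT libraries. KO stands for Df(h15q13)/+ mice, which carry on 1 copy of chromosome 7 a deletion that models the human 15q13 microdeletion, and WT for their wild-type littermates. The design text states 7 animals with the deletion and 8 without it, which the titles reverse, and the titles were followed. The labels name no individual animals, so p-values measure the spread between libraries, which may in part be technical.

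Neurexins sit mainly in the presynaptic membrane and reach across the cleft to postsynaptic partners, of which neuroligins and LRRTMs are the best known. Each neurexin gene makes long α and short β forms from separate start sites, and alternative splicing of its exons sets which partners can bind. Neuroligin 1 is found mostly at excitatory synapses, neuroligin 2 at inhibitory synapses and neuroligin 3 at both. LRRTMs are leucine-rich repeat proteins of excitatory synapses and help to hold AMPA receptors there.

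The 5 tested genes of the deleted interval, Chrna7, Otud7a, Klf13, Mtmr10 and Fan1, fell in KO libraries by 0.83 to 1.13 on the log2 scale (limma, Benjamini-Hochberg adjusted p of 0.00792 or lower), and their summed level was 49.0 to 60.75 TPM in KO and 103 to 138 TPM in WT libraries, so the titles and the expression go together. In each library 18375 to 18748 genes were at 1 TPM or above, and 0 pairs of libraries were identical. Mitochondrial genes held 18.8% to 23.9% of the TPM in KO and 21.1% to 26% in WT libraries. Read depth cannot be had from TPM and is unknown here, so no counting error is given. The 7 excitatory neuron markers, Slc17a7 among them, summed to 2680 to 2977 TPM in KO and 2635 to 2902 TPM in WT libraries, and the 6 inhibitory neuron markers to 635 to 892 TPM in KO and 675 to 791 TPM in WT libraries, with no marker at 0 throughout. These sums hide unlike directions. Of the inhibitory markers only Sst, the largest part of the sum, was higher in KO (log2 difference 0.11). The other 5 were lower, with Gad1 at -0.21 and Gad2 at -0.20. Of the excitatory markers 5 were higher and 2 lower in KO, with Slc17a7 at 0.22 and Camk2a at -0.20. None of these markers passed the test. Myelin markers stood apart in KO 1 and KO 8, whose 7 oligodendrocyte genes summed to 845.5 and 1272 TPM, against 256 to 386.5 TPM in the other 6 KO libraries and 373 to 511 TPM in WT libraries.

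The table lists the genes by Ensembl ID, as ENSMUSG00000033768 (Nrxn2), ENSMUSG00000066392 (Nrxn3), ENSMUSG00000063887 (Nlgn1), ENSMUSG00000051790 (Nlgn2), ENSMUSG00000031302 (Nlgn3), ENSMUSG00000060780 (Lrrtm1), ENSMUSG00000071862 (Lrrtm2), ENSMUSG00000042846 (Lrrtm3) and ENSMUSG00000052581 (Lrrtm4). They differ greatly in size. Nrxn3 spans 1612 kb (chromosome 12, 88722876 to 90334935, mm10, plus strand, GENCODE M21), Nlgn1 906 kb (chromosome 3, 25426215 to 26332460, minus strand) and Lrrtm4 791 kb (chromosome 6, 80018877 to 80810143, plus strand). Nlgn2 spans only 14.7 kb (chromosome 11, 69823122 to 69837784, minus strand), Nlgn3 26.8 kb (chromosome X, 101299168 to 101325963, plus strand) and Nrxn2 125 kb (chromosome 19, 6418731 to 6544169, plus strand). RefSeq promoter windows of build GRCm38.p6, from 250 bases before to 50 bases after a start site, matched 6 of the 9 genes with 10 windows. The windows of Nlgn2 and Nlgn1 are shown because Nlgn2 had the highest and Nlgn1 the lowest level of the neuroligins. For Nrxn3 the most upstream and the most downstream of 3 windows are shown because the TPM of Nrxn3 sums over transcripts from all starts. Even the most upstream of them lies inside the gene, downstream of its annotated start at 88722876, which no window covers. Below, the upstream start of Nrxn3 means the start of that window. The window of Lrrtm4 is shown because its level in 2 libraries was far above the others. Capitals mark CG dinucleotides, and each sequence runs 5′ to 3′ on the strand of the gene.
Nlgn2, chr11:69837735-69838034, minus strand: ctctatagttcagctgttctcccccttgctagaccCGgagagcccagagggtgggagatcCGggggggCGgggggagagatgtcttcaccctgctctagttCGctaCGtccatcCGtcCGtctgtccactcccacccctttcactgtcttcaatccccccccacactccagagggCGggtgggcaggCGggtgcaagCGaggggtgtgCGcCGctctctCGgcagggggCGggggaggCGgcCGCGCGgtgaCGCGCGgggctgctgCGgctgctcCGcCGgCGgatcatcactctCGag
Nlgn1, upstream start, chr3:26331860-26332159, minus strand: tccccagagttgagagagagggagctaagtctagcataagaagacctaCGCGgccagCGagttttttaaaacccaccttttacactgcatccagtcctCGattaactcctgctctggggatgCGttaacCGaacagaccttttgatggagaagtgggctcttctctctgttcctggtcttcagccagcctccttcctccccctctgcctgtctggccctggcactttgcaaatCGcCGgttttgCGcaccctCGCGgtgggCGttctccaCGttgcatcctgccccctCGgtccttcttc
Nrxn3, upstream start, chr12:88794254-88794553, plus strand: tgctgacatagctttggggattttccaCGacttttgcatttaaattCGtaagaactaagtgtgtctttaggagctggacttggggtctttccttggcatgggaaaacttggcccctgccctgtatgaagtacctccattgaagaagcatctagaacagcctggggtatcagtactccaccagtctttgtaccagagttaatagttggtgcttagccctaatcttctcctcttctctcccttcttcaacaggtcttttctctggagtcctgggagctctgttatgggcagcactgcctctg
Nrxn3, downstream start, chr12:89812233-89812532, plus strand: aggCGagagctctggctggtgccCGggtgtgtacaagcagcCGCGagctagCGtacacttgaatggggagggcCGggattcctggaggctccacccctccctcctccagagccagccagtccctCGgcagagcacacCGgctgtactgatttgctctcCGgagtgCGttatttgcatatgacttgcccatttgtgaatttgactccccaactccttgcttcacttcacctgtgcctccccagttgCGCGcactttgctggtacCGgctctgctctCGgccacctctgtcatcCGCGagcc
Lrrtm4, upstream start, chr6:80018627-80018926, plus strand: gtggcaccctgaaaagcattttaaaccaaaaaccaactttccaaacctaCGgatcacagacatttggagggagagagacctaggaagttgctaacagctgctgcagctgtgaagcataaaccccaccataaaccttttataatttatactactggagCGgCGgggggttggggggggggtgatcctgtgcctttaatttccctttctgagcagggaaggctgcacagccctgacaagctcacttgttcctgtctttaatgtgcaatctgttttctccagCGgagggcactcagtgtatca
The Nlgn2 window held 26 CG dinucleotides and 68.7% G and C, against 14 and 55.7% in the Nlgn1 window shown. The window at the downstream Nlgn1 start, not shown, held 6 and 44.7%. The median over all 32851 windows was 7 and 52.7%. The Nrxn3 windows shown, both inside the gene, held 2 CG dinucleotides in the more upstream and 16 in the more downstream. The Lrrtm4 window shown held 4, and the window at its downstream start 9.

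None of the 9 organizers passed the test between KO and WT cortex, where 0.0268% of all 18656 tested genes did. By limma on log2(TPM + 1) with Benjamini-Hochberg adjustment over all tested genes, 0 of 9 had an adjusted p under 0.05 and 0 of 9 an unadjusted p under 0.05, against 11.9% of all tested genes at an unadjusted p under 0.05, 5.68% with higher and 6.21% with lower levels in KO. Under alternatives the unadjusted count for the 9 genes was 1 without WT 1, 1 without KO 5 and 2 without KO 3. It was also 1 with the replicate number as a block and 1 with the myelin marker level as a covariate. The KO and WT libraries overlapped for each of the 9 genes, and 0.134% of all tested genes had groups that did not overlap. KO means lay between 80.1% of the WT mean for Nlgn1 and 104% for Lrrtm3. The median log2 difference over the 9 genes was -0.04, beside 0.02 over all tested genes. Of the 9 genes 7 had a negative and 2 a positive difference, with the values as deposited and under median-of-ratios scaling and quantile normalization, but 3 a negative and 6 a positive one once the trends of each library on transcript length and GC content were removed. Leaving out single libraries also moved this split, to 4 negative and 5 positive without WT 7.

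**Figure D1:**
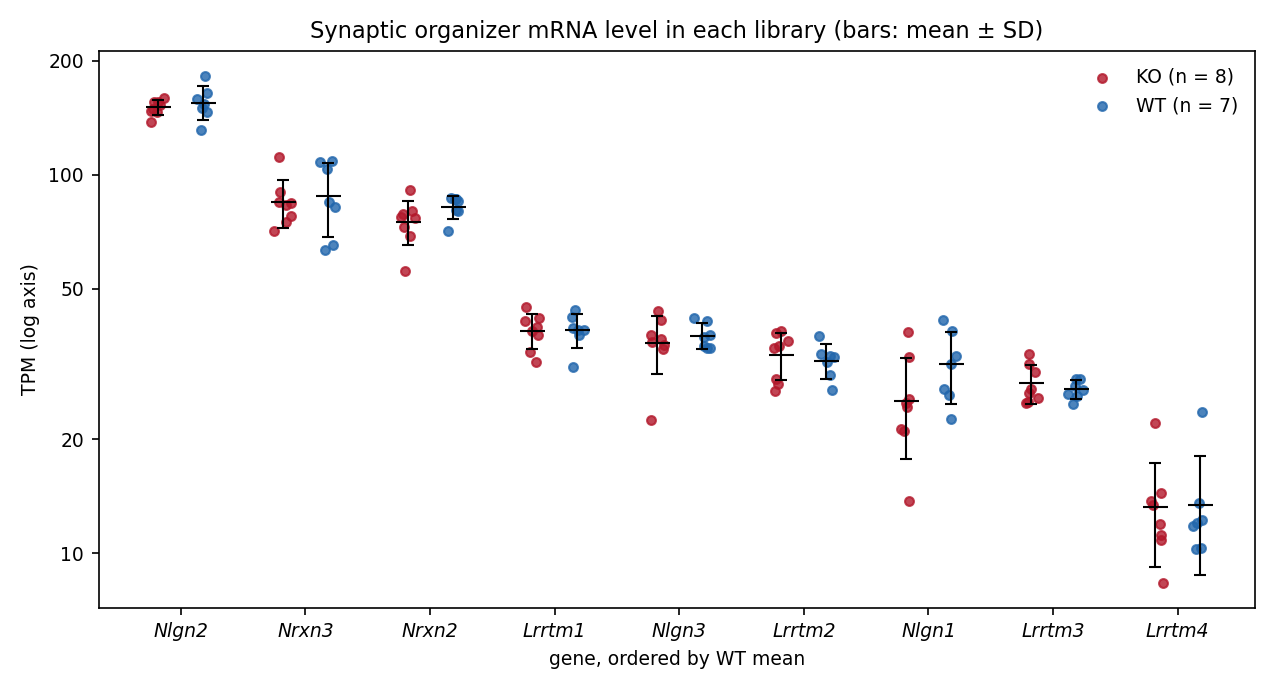
Level of each of the 9 genes in every library, in TPM on a log axis, with KO (8 libraries) left of WT (7 libraries) for each gene and genes ordered by their WT mean; black bars give the mean ± SD. KO and WT libraries overlap for each gene, Nlgn2 stands highest at 151 TPM in KO and 155 TPM in WT, and Lrrtm4 lowest with 1 library of each group near 23 TPM.

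Among the presynaptic members, Nrxn2 had the larger difference and Nrxn3 the wider spread. Nrxn2 had a lowest value of 55.9, a median of 77.1 and a highest value of 91.0 TPM in KO libraries, against 71.0, 85.1 and 86.7 TPM in WT libraries. KO 1 was the lowest library of all and KO 3 the highest, and 7 of 8 KO libraries lay below the WT mean. The log2 difference was -0.14 ± 0.08 (SE), with a 95% interval from -0.31 to 0.04 (limma adjusted p = 0.499). Over all alternatives it ran from -0.18, without KO 3, to -0.05, with length and GC trends removed; it was -0.17 under quantile normalization, -0.08 without KO 1 and -0.09 without KO 1 and KO 8. Nrxn3 had a lowest value of 70.9, a median of 83.7 and a highest value of 111 TPM in KO libraries, against 63.4, 84.6 and 109 TPM in WT libraries. Of the KO libraries only KO 5 exceeded 90.0 TPM, while the WT libraries were spread widely, with WT 1 and WT 5 at 63.4 and 65.4 TPM and WT 4, WT 6 and WT 7 at 104 to 109 TPM. The Nrxn3 difference was -0.04 ± 0.13 (SE; 95% interval from -0.31 to 0.23; limma adjusted p = 0.911). The rows do not separate α from β forms, so a shift between start sites would not show here.

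Nlgn1, the neuroligin of excitatory synapses, had the largest difference of the 9 genes, and it did not pass the test. It averaged 25.3 ± 7.56 TPM (SD, n = 8) in KO and 31.6 ± 6.84 TPM (SD, n = 7) in WT libraries. Its KO values had a lowest of 13.75, a median of 24.7 and a highest of 38.4 TPM, against 22.6, 31.7 and 41.45 TPM in WT. KO 1, KO 2 and KO 8 lay below every WT library, and the other 5 KO libraries were inside the WT range. The log2 difference was -0.34 ± 0.18 (SE), with a 95% interval from -0.71 to 0.04, which on this scale runs from 61.1% to 103% of the WT level (limma, unadjusted p = 0.0765, adjusted p = 0.455). Over all alternatives the value ran from -0.43, without KO 3, to -0.17. It was -0.22 without KO 1, -0.17 without KO 1 and KO 8, the 2 libraries with high myelin markers, and -0.22 with length and GC trends removed. With the myelin marker level as a covariate the difference was -0.36. In bulk tissue, fewer cells of a type and less RNA per cell cannot be told apart, here or for any gene that follows.

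Nlgn2, the neuroligin of inhibitory synapses, was the highest of the 9 genes and the steadiest in KO libraries. Its lowest, median and highest values were 138, 151 and 159.7 TPM in KO libraries, against 131, 153.5 and 182 TPM in WT libraries. All 8 KO libraries lay inside the WT range, and the coefficient of variation was 4.52% in KO and 10.2% in WT libraries, beside medians over all tested genes of 17.2% in KO and 13.9% in WT. The log2 difference was -0.04 ± 0.06 (SE; 95% interval from -0.17 to 0.09; limma adjusted p = 0.8005), so the interval runs from 88.9% to 107% of the WT level. Nlgn3, which serves excitatory and inhibitory synapses, had a lowest value of 22.5, a median of 36.5 and a highest value of 43.6 TPM in KO libraries, against 34.8, 37.2 and 41.8 TPM in WT libraries. KO 8 was far below the other KO libraries, of which the next lowest was KO 7 at 34.65 TPM. The Nlgn3 difference was -0.08 ± 0.11 (SE; limma adjusted p = 0.769) and 0.02 without KO 8. KO 8 was also the library with the highest summed myelin markers, and KO 1, the next highest, had 37.8 TPM of Nlgn3; the part of these markers in the low value was not tested.

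**Figure D2:**
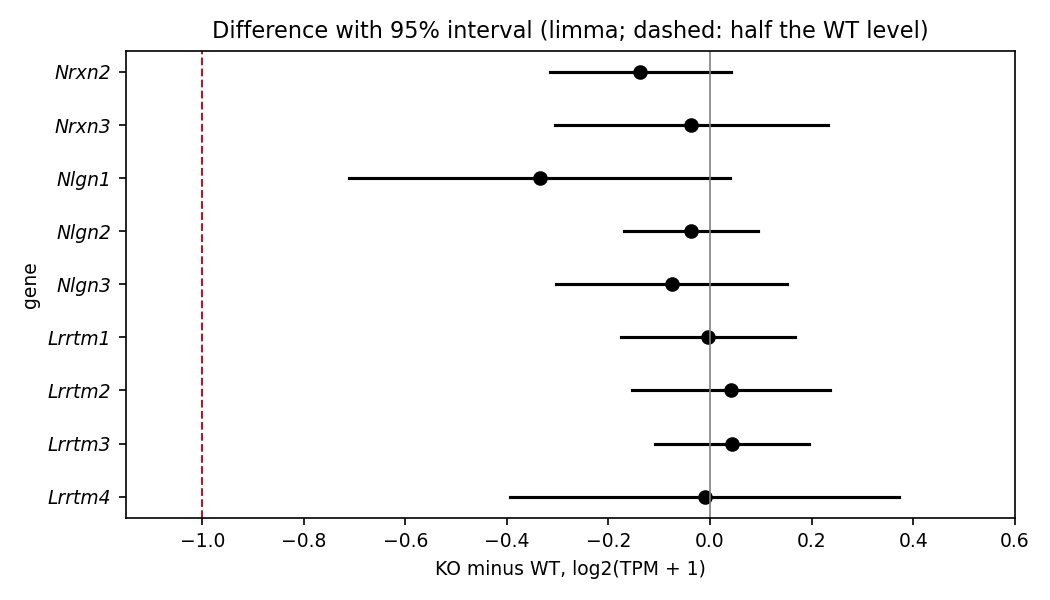
KO minus WT difference of each gene on the log2(TPM + 1) scale, with dots for the estimate and lines for the 95% interval from limma over 8 KO and 7 WT libraries; the dashed line marks -1. Each interval includes 0, and the lowest bound is -0.71 for Nlgn1, so no interval reaches the dashed line at -1.

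No LRRTM gene differed by more than 0.05 on the log2 scale. Lrrtm1 and Lrrtm2 code for the LRRTMs best known as neurexin partners at excitatory synapses. Lrrtm1 had a lowest value of 32.05, a median of 39.2 and a highest value of 44.9 TPM in KO libraries, against 31.1, 38.9 and 43.85 TPM in WT libraries, a log2 difference of -0.0040 ± 0.081 (SE; 95% interval from -0.18 to 0.17; limma adjusted p = 0.986). KO and WT libraries covered nearly the same range. Lrrtm2 had 26.8, 35.01 and 38.8 TPM as lowest, median and highest values in KO libraries, against 26.9, 33.1 and 37.6 TPM in WT libraries, a difference of 0.04 ± 0.09 (SE; interval from -0.15 to 0.24; limma adjusted p = 0.856). Lrrtm3 had 24.9, 26.9 and 33.7 TPM in KO libraries, against 24.9, 27.0 and 28.95 TPM in WT libraries, a difference of 0.04 ± 0.07 (SE; interval from -0.11 to 0.19; limma adjusted p = 0.8005). For Lrrtm3 the KO libraries reached higher, with KO 3, KO 4 and KO 7 above every WT library, and the SD was 3.295 TPM in KO and 1.53 TPM in WT libraries. Lrrtm4, whose protein also binds heparan sulfate chains, had 8.37, 12.7 and 22.1 TPM as lowest, median and highest values in KO libraries, against 10.3, 12.02 and 23.7 TPM in WT libraries. KO 7 and WT 4 were far above the rest of their groups, where the next values were 14.5 TPM in KO and 13.6 TPM in WT libraries. The Lrrtm4 difference was -0.01 ± 0.18 (SE; interval from -0.39 to 0.37; limma adjusted p = 0.984). It turned to 0.13 without WT 4 and to -0.12 without KO 7.

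Lrrtm1, Lrrtm2 and Lrrtm3 each lie inside a gene of the α-catenin family, on the opposite strand, and Lrrtm4 is in no such host. The strand setting of the authors' counting is not given in the sources used here, so reads of a host gene that fall on an LRRTM exon could not be told apart. The same limit holds for other genes that overlap Nrxn2, Nrxn3, Nlgn1, Nlgn3 and Lrrtm4. Their highest means were 3.75 TPM in KO (Gm44228, inside Lrrtm4) and 3.51 TPM in WT libraries (Gm14964, inside Nrxn2). These means hide an uneven spread. Gm21986, which overlaps part of Nlgn3 on the same strand, was at 1.91 ± 4.64 TPM (SD) in KO libraries. In WT libraries Gm21986 was at 0.450 ± 0.325 TPM (SD). Its part in the Nlgn3 values of single libraries was not tested. Ctnna2, the host of Lrrtm1 (chromosome 6, 77242689 to 77257791), was at 60.8 ± 5.81 TPM (SD, n = 8) in KO and 57.9 ± 13.1 TPM (SD, n = 7) in WT libraries (log2 difference 0.10 ± 0.13, SE; limma adjusted p = 0.7498). Ctnna1, the host of Lrrtm2 on chromosome 18, was at 22.8 ± 2.49 TPM in KO and 25.1 ± 1.68 TPM in WT libraries (-0.14 ± 0.07, SE; limma adjusted p = 0.447). Ctnna3, the host of Lrrtm3 (chromosome 10, 63928472 to 64090277), was listed at 0.338 ± 0.121 TPM in KO and 0.270 ± 0.0780 TPM in WT libraries, below the filter. Lrrtm3 thus stood far above its host, while Lrrtm1 stood below and Lrrtm2 somewhat above theirs.

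The order of the levels was much the same in KO and WT cortex. TPM is scaled by transcript length, so levels can be set beside each other, within the limits of transcript models that are not named. Nlgn2 was above Nrxn3, the next gene, in 15 of 15 libraries, at 1.78 times its mean in KO and 1.76 times in WT. Nrxn3 was above Nrxn2 in only 11 of 15 libraries, and their ranges overlapped. Both neurexins were above Lrrtm1 in each library, Nrxn2 at 1.94 times its mean in KO and 2.12 times in WT. Lrrtm1, Nlgn3, Lrrtm2, Nlgn1 and Lrrtm3 followed closely in WT and each overlapped its neighbours in that order, for example with Lrrtm2 above Nlgn1 in 10 and Nlgn1 above Lrrtm3 in 7 of 15 libraries. Nlgn1 ranked eighth in KO and seventh in WT, the one change of order, and its place relative to Lrrtm3 was within their spread. Lrrtm4 was lowest in 15 of 15 libraries when set against Lrrtm3, which was at 2.12 times its mean in KO and 2.02 times in WT. On a percentile scale of mean TPM over all tested genes, Lrrtm4 stood at 50.55 and Nlgn2 at 96.1.

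Within the neuroligin family, Nlgn2 made up 71.2% ± 3.36 of the summed TPM in KO and 69.2% ± 2.81 in WT libraries (SD, n = 8 and n = 7). Nlgn1 made up 11.8% ± 2.82 in KO and 14.1% ± 2.74 in WT, and Nlgn3 17.0% ± 2.55 in KO and 16.75% ± 0.5625 in WT. The Nlgn3 share ran from 11.65% to 19.9% over the KO libraries and from 15.98% to 17.75% over the WT libraries. The sum of the 3 neuroligins was 212 ± 15.9 TPM in KO and 224 ± 19.9 TPM in WT libraries. Among the 4 LRRTM genes, Lrrtm1 held 34.1% ± 2.93 in KO and 34.8% ± 2.27 in WT, and the LRRTM sum was 113.5 ± 7.16 TPM in KO and 112 ± 10.6 TPM in WT.

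Ratios between members of a family do not depend on how a library is scaled, apart from the pseudocount, and 3 of them were set against the genotype. Each was tested by exact permutation of the library labels, two-sided (6435 arrangements), with p-values adjusted over the 3 ratios. The Nlgn2 to Nlgn1 ratio, which sets the neuroligin of inhibitory against that of excitatory synapses, had a log2 mean of 2.58 ± 0.387 (SD, n = 8) in KO and 2.28 ± 0.340 (SD, n = 7) in WT libraries. The difference was 0.30 ± 0.19 (SE), with 6 of 8 KO libraries above the WT mean, and was not past the threshold (exact permutation p = 0.134, adjusted p = 0.401). KO 1 had the highest ratio, 3.24, and without KO 1 and KO 8 the difference was 0.16 (adjusted exact p = 0.7401). The Nrxn2 to Nrxn3 ratio was -0.17 ± 0.22 in KO and -0.07 ± 0.31 in WT on the log2 scale (SD), a difference of -0.10 ± 0.14 (SE; exact permutation p = 0.4755, adjusted p = 0.713). The Lrrtm1 to Lrrtm2 ratio was 0.21 ± 0.33 in KO and 0.26 ± 0.11 in WT (SD), a difference of -0.05 ± 0.12 (SE; exact permutation p = 0.746, also after adjustment). Its values ran from -0.27 to 0.66 over the KO libraries and from 0.16 to 0.44 over the WT libraries.

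**Figure D3:**
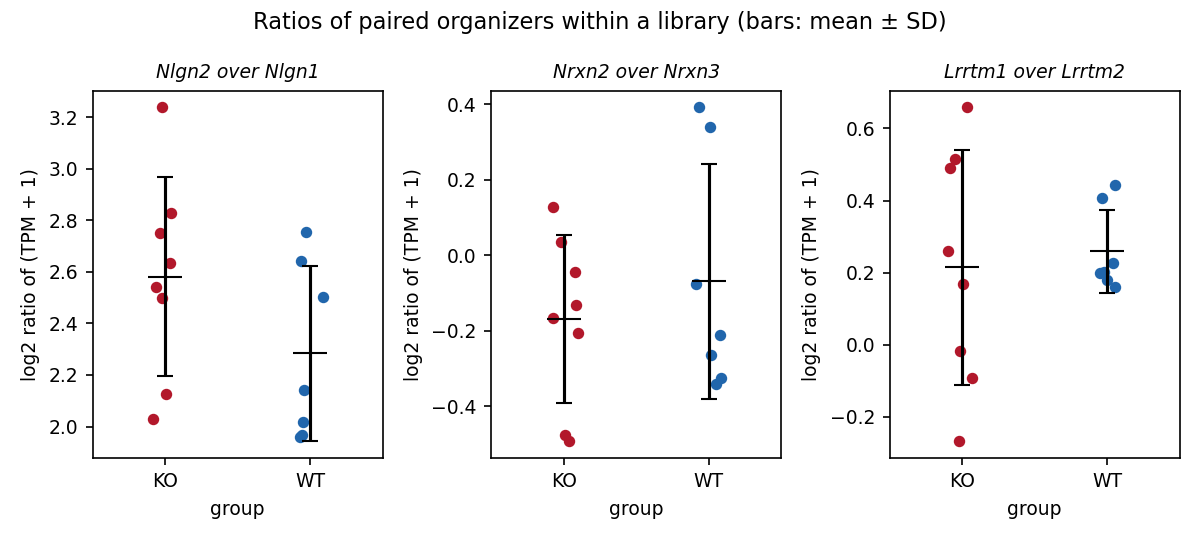
Log2 ratio of (TPM + 1) within each library for Nlgn2 over Nlgn1, Nrxn2 over Nrxn3 and Lrrtm1 over Lrrtm2, with KO (8 libraries) left of WT (7 libraries); black bars give the mean ± SD. The groups overlap in each panel, with means of 2.58 in KO and 2.28 in WT for Nlgn2 over Nlgn1.

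The spread between libraries differed among the members. Lrrtm4 varied most in both groups, with a coefficient of variation of 30.75% in KO and 34.8% in WT libraries, followed in KO by Nlgn1 with 29.9%, which was at 21.7% in WT. Nrxn3 was at 14.6% in KO and came next after Lrrtm4 in WT, at 21.98%. Nrxn2, Nlgn3 and Lrrtm3 were at 13.4%, 17.4% and 11.7% in KO libraries, against 6.895%, 7.81% and 5.64% in WT libraries, a difference in spread that was not tested. Over all tested genes the median was also higher in KO than in WT.

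For each member, the gene whose log2(TPM + 1), centred within each group, followed it most closely over the 15 libraries was looked up among the 18655 other tested genes. Such a gene is picked as the best of many, so its r is high by choice, and libraries share composition effects of the TPM scale, so these values describe the libraries and carry no p. Lrrtm4 went most closely with Dbp, a transcription factor gene whose expression follows the circadian clock, at r = 0.916 and rho = 0.807 over 15 libraries. Dbp was at 96.7 TPM in KO 7 and 89.3 TPM in WT 4, the same 2 libraries in which Lrrtm4 was highest, against 60.2 to 74.1 TPM in the other KO and 56.1 to 73.5 TPM in the other WT libraries. These 2 libraries stand apart from the rest, and without them r was 0.698. The labels give no time of day at which tissue was taken. The Lrrtm4 window printed above and the window at its downstream start held neither the E-box CACGTG, which 7.15% of all promoter windows held, nor the D-box TTATGTAA, which 0.938% held. Both strands were searched. Most windows hold neither motif, so this search cannot decide anything about the relation with Dbp, whose cause was not tested. Of the other windows read, which cover none of Nrxn2, Nlgn3 and Lrrtm2, that of Lrrtm3 held 1 D-box.

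Nlgn3 went most closely with Rab2b, which encodes a small GTPase, at r = 0.944 and rho = 0.875 over 15 libraries, and r was 0.886 without KO 4 and KO 8. Rab2b was at 19.9 TPM in KO 8, its lowest library as for Nlgn3, against a median of 31.0 TPM in KO and 29.05 TPM in WT libraries. Nlgn1 went with Camk2d, which encodes a subunit of the calcium and calmodulin dependent kinase II, at r = 0.896 and rho = 0.771, and r was 0.804 without KO 1 and KO 3. Camk2d too was lowest in KO 1, at 42.3 TPM, and highest in KO 3, at 79.6 TPM. Nlgn2 went with the protocadherin gene Pcdhb17 (r = 0.877, rho = 0.871), Lrrtm1 with the orphan nuclear receptor gene Nr2f6 (r = 0.894, rho = 0.836) and Lrrtm2 with Dpy19l1 (r = 0.914, rho = 0.896). Nrxn2 went with Csnk2a1-ps1 (r = 0.877, rho = 0.814), Nrxn3 with Gm7887 (r = 0.862, rho = 0.893) and Lrrtm3 with Gm20712 (r = 0.868, rho = 0.843). Csnk2a1-ps1 is a pseudogene symbol, and its reads may belong in part to a near-identical gene.

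**Figure D4:**
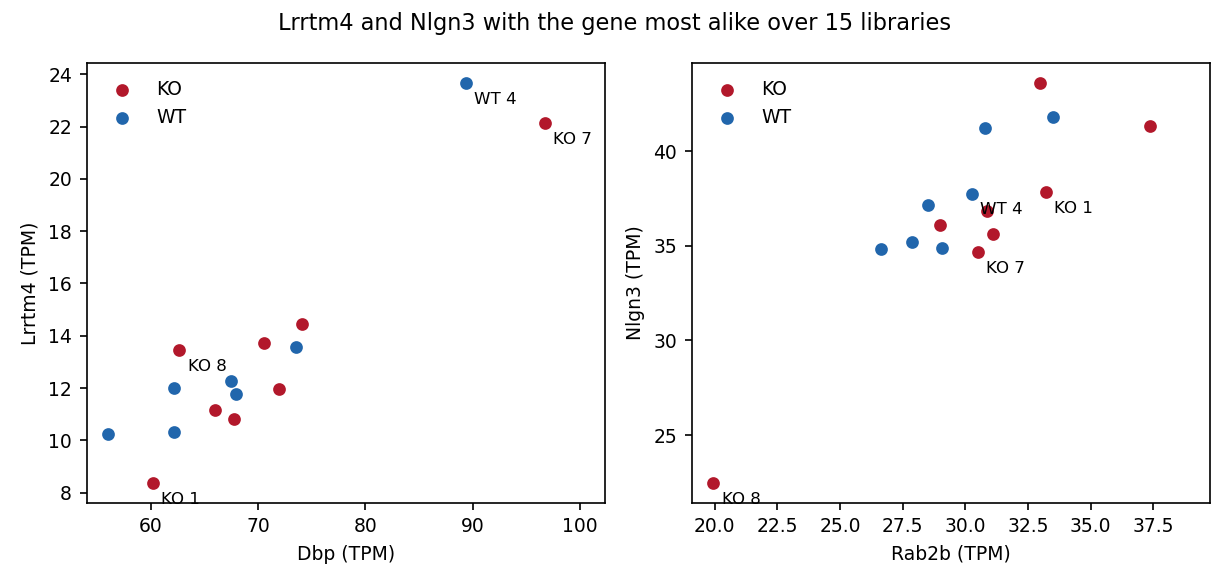
Left, Lrrtm4 against Dbp, and right, Nlgn3 against Rab2b, in TPM, with 1 point for each of the 8 KO and 7 WT libraries. KO 7 and WT 4 stand apart at 96.7 and 89.3 TPM of Dbp, and KO 8 stands apart at 22.5 TPM of Nlgn3 and 19.9 TPM of Rab2b.

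The members did not move as 1 block from library to library. Over the 36 pairs of members, r after centring within groups ran from -0.153 to 0.753 with a median of 0.238, and 3 pairs exceeded 0.5. The highest was Nrxn2 with Nlgn1 (r = 0.753, rho = 0.589 over 15 libraries), which was 0.65 without KO 1 and KO 8. Nlgn3 with Lrrtm3 was at 0.54 and Nrxn3 with Lrrtm2 at 0.523. Lrrtm1 and Lrrtm2, which share a family and a role, were at r = -0.125, but at -0.642 over KO and 0.711 over WT libraries alone. Over the 7 WT libraries nearly all pairs had a positive r, such as 0.874 for Nrxn3 with Nlgn3, which was at -0.326 in KO. Nrxn2 with Nlgn2 went the other way, at 0.834 in KO and 0.201 in WT. An r within 1 group rests on few libraries, and these differences between groups were not tested. Among 72 relations of the 9 genes with the mean levels of 8 sets of cell type markers, the highest was that of Lrrtm2 with excitatory neuron markers (r = 0.788, rho = 0.725), which was 0.771 without KO 1 and KO 8. The lowest was that of Nlgn3 with inhibitory neuron markers (r = -0.618, rho = -0.311), which was -0.282 without KO 1 and KO 8. That of Nlgn1 with oligodendrocyte markers was r = -0.565 (rho = -0.582), and -0.385 without KO 1 and KO 8. That of Nlgn3 with oligodendrocyte markers was r = -0.551 (rho = -0.093) over 15 libraries and 0.031 without KO 1 and KO 8. Of these 2 libraries KO 8 had the lowest Nlgn3, 22.5 TPM, while KO 1, at 37.8 TPM, was above the KO mean of 36.05 TPM. Leaving out KO 8 alone was not tried for this relation.

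The known partners of these proteins, read from 6 lists of genes, held no gene past the test either (limma, Benjamini-Hochberg over all tested genes; 0.0268% of all tested genes passed). Of 17 tested genes listed as neurexin ligands, 8 had a positive and 9 a negative difference, with a median of -0.0052. The list also holds the glypican gene Gpc4, whose binding to neurexins was not checked here. An unadjusted p under 0.05 (limma) was reached by 4 of the 17, 2 higher and 2 lower, beside 11.9% of all tested genes. That count was 2 without KO 1, KO 3, WT 2 or WT 5 and 6 without KO 7. Sparcl1, the gene of hevin, a protein secreted by astrocytes that bridges neurexins and neuroligins, averaged 1061 ± 81.0 TPM in KO and 1203 ± 55.8 TPM in WT libraries (SD; log2 difference -0.18 ± 0.06, SE; limma adjusted p = 0.311). Dag1, the gene of dystroglycan, a surface protein that binds neurexins, was at 39.8 ± 4.12 TPM in KO and 48.8 ± 6.93 TPM in WT libraries (-0.28 ± 0.09; limma adjusted p = 0.321), and 8 of 8 KO libraries lay under the WT mean. The 2 higher ones, named after their values were seen, were Igsf21, which encodes a surface protein that binds neurexins, and Cbln1, which encodes a secreted cerebellin. Igsf21 was at 67.0 ± 23.8 TPM in KO and 48.02 ± 9.44 TPM in WT libraries (0.43 ± 0.18; limma adjusted p = 0.388), with 6 of 8 KO libraries over the WT mean. Cbln1 was at 4.995 ± 3.02 TPM in KO and 2.74 ± 1.08 TPM in WT libraries (0.59 ± 0.27; limma adjusted p = 0.412), with 7 of 8 KO libraries over the WT mean. In the same libraries 6 of 7 astrocyte markers and 5 of 5 endothelial markers had negative differences, with summed levels of 1346 to 1812 TPM in KO and 1565 to 2127 TPM in WT for astrocytes, and 60.8 to 107 TPM in KO and 99.9 to 128 TPM in WT for endothelium, and no marker was at 0 throughout; their part in the values of Sparcl1 and Dag1 was not tested.

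Of 6 tested modulators of neuroligins, 4 had negative differences, with a median of -0.14. Mdga1 and Mdga2 encode surface proteins that bind neuroligins and keep neurexins off. Mdga1 was at 3.54 ± 1.71 TPM in KO and 6.51 ± 4.0 TPM in WT libraries (-0.64 ± 0.29, SE; limma adjusted p = 0.412), and Mdga2 at 11.9 ± 1.02 TPM in KO and 13.4 ± 0.992 TPM in WT libraries (-0.15 ± 0.07; limma adjusted p = 0.3901). For each of them 7 of 8 KO libraries lay below the WT mean. Among 8 tested partners of neurexin tails, the median was -0.06, and 0.0158 with length and GC trends removed. Cask, a scaffold that binds neurexins, was at 34.35 ± 11.1 TPM in KO and 42.1 ± 6.55 TPM in WT libraries (-0.36 ± 0.22; limma adjusted p = 0.492), and its binding partner Lin7a at 29.4 ± 5.15 TPM in KO and 33.4 ± 3.65 TPM in WT libraries (-0.19 ± 0.11; limma adjusted p = 0.484).

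Of 17 tested postsynaptic scaffold genes, 13 had negative and 4 positive differences, with a median of -0.14, which was -0.04 with length and GC trends removed. An unadjusted p under 0.05 was reached by 3 of them, all lower, beside 11.9% of all tested genes. That count rested on single libraries: it was 0 without KO 1, WT 5, WT 6 or WT 7, 1 without KO 4, 5 without WT 1 and 8 without WT 4, and it was 1 with length and GC trends removed. Dlg1 was at 71.4 ± 9.001 TPM in KO and 83.1 ± 10.2 TPM in WT libraries (limma adjusted p = 0.388), and Dlgap2, a scaffold of the postsynaptic density, at 37.3 ± 4.73 TPM in KO and 42.9 ± 4.91 TPM in WT libraries (-0.20 ± 0.09; limma adjusted p = 0.409). The other of the 3, Shank3, a scaffold gene named after its values were seen, was at 78.9 ± 19.2 TPM in KO and 98.85 ± 15.4 TPM in WT libraries (-0.35 ± 0.16; limma adjusted p = 0.4101). Of 11 tested proteases and splicing factors that act on neurexins or neuroligins, Psenen, a subunit gene of γ-secretase, was at 43.7 ± 8.197 TPM in KO and 30.6 ± 3.69 TPM in WT libraries, and 8 of 8 KO libraries lay over the WT mean (0.49 ± 0.12, SE; limma adjusted p = 0.241). The metalloprotease gene Adam17 was at 6.92 ± 0.875 TPM in KO and 8.76 ± 1.41 TPM in WT libraries (-0.30 ± 0.10; limma adjusted p = 0.326). Of 32 tested genes of other trans-synaptic organizers, 21 had negative and 11 positive differences, and the split was 15 to 17 with length and GC trends removed and also without KO 1 and KO 8. None of these 32 had an unadjusted p under 0.05 in limma with all libraries, and up to 3 did when 1 library was left out (3 without WT 3). Slitrk4, an adhesion gene of the Slitrk family, was at 13.6 ± 2.40 TPM in KO and 17.9 ± 5.64 TPM in WT libraries (limma adjusted p = 0.434), and Il1rapl1 at 5.30 ± 0.933 TPM in KO and 6.40 ± 1.31 TPM in WT libraries (limma adjusted p = 0.4596), and for both 8 of 8 KO libraries lay under the WT mean.

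**Figure D5:**
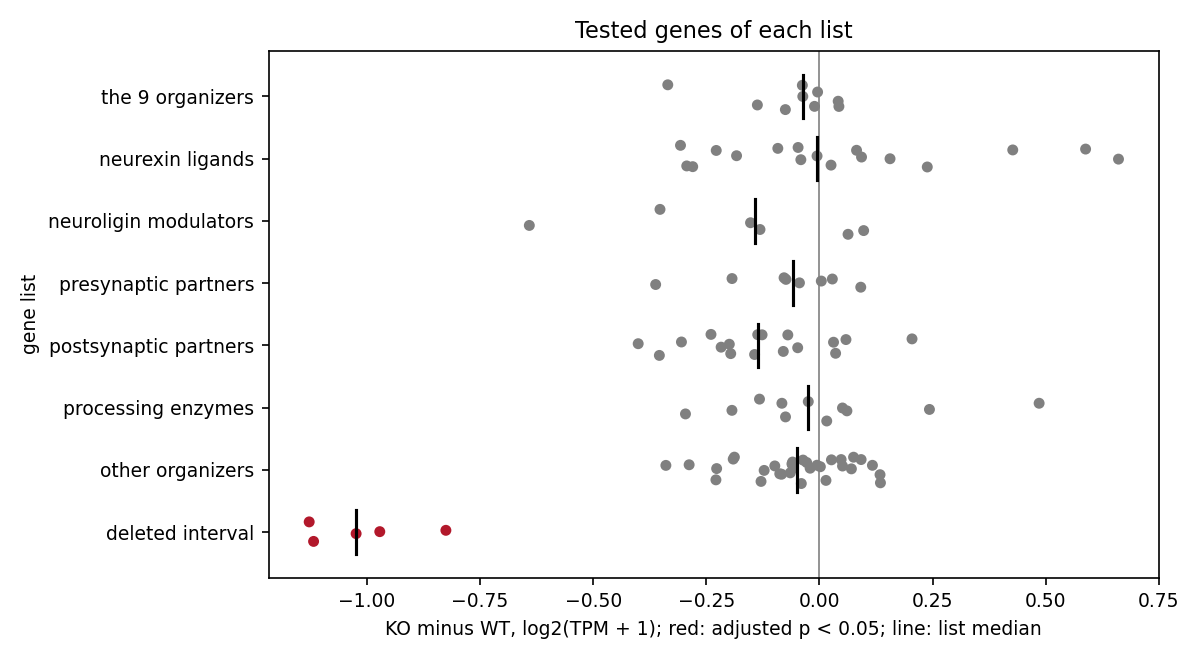
KO minus WT difference on the log2(TPM + 1) scale of each tested gene of the 9 organizers, of 6 lists of their partners and of the deleted interval; vertical lines mark the list medians, and red dots the genes with an adjusted p under 0.05 (limma). Only the 5 deleted genes are red, and the 9 organizers lie between -0.34 and 0.04.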

How the data were processed

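RNA-seq of 15 libraries was deposited by the authors as TPM values per Ensembl gene ID, 1 column per library, each summing to 999789 to 999899. The tools named per the submitters' processing notes are HISAT2, StringTie and Trimmomatic, and the build is mm10. Their versions, settings, strandedness and gene annotation were not given in the sources used here. GENCODE M21 symbols matched 54723 of 54838 IDs, and IDs sharing a symbol were summed. Genes averaging 1 TPM or more were tested as log2(TPM + 1) in limma 3.58.1 (R 4.3.3), with a variance trend, KO minus WT over all 15 libraries, two-sided, Benjamini-Hochberg threshold 0.05. Fold changes on this scale understate those of low genes. TPM keeps no depth, so no count test and no counting interval was used. The test was checked on simulated data.

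The 9 genes, the lists and the tests were chosen with earlier results of these data known. Named were the 9 genes, the 2 genes of lowest p in each list, the gene most alike each member, and the deleted genes. Genes that overlap a member were looked up by position, and of these mainly the α-catenin hosts are reported. Not used were 2 columns without a name. Alternatives were smaller pseudocounts, other filters, scalings, weights and variance priors, a replicate block, a myelin covariate and left-out libraries.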

Additional observations from a re-analysis of the deposited data

Results flagged for a closer look

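In 24 groups of values (9 genes and 3 ratios, in KO and in WT), 5 single libraries stood farther from their group than Dixon's 95% limit allows. Chance alone flags about 1 in 20 groups. Lrrtm4 was at 22.1 TPM in KO 7, against 14.5 TPM in the next KO library, and at 23.7 TPM in WT 4, against 13.6 TPM in the next WT library. Nlgn3 was at 22.5 TPM in KO 8, against 34.65 TPM in the next KO library. Nrxn3 was at 111 TPM in KO 5, against 90.0 TPM in the next. Nrxn2 was at 71.0 TPM in WT 2, against 80.3 TPM in the next WT library.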

How the results depend on the processing

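Under 29 alternatives for each of the 9 genes, 0 of 261 values passed the threshold (limma; lowest adjusted p = 0.308, Nlgn1 with the replicate block), and Nrxn2, Nlgn1 and Lrrtm3 kept their direction in each. Of the 261 values, 29 changed sign. With length and GC trends removed, Nrxn3 was at 0.0691, Nlgn2 at 0.0357, Nlgn3 at 0.0368 and Lrrtm4 at 0.0178; with array weights Lrrtm1 was at 0.0135 and Lrrtm4 at 0.0792. Without KO 1 and KO 8, Nlgn3 was at 0.0161, Lrrtm1 at 0.0325, Lrrtm2 at -0.0101, Lrrtm4 at 0.0717 and the Lrrtm1 to Lrrtm2 ratio at 0.0426. With the replicate block, which leaves out KO 8 because no WT library has its number, the count of genes past the threshold was 8, against 5; Nlgn3 was at 0.0158, Lrrtm1 at 0.0331 and the Lrrtm1 to Lrrtm2 ratio at 0.0234, the same values as without KO 8 alone. The cause of the other changes was not tested. Same-numbered KO and WT libraries had correlations of deviations from -0.043 to 0.122, over 0.1 in 1 of 7 pairs, and 2 of 7 KO libraries went best with their own number. These values cannot decide whether same-numbered libraries were handled together, so the block was kept as an alternative only. Leaving out 1 library at a time gave -0.1094 to 0.0189 for Nrxn3 (positive without WT 4, WT 6 or WT 7), -0.0764 to 0.0018 for Nlgn2 (positive without WT 6), -0.1165 to 0.0158 for Nlgn3 (positive without KO 8), -0.0552 to 0.0331 for Lrrtm1 (positive without KO 4, KO 5, KO 8, WT 3, WT 5 or WT 7), -0.117 to 0.1268 for Lrrtm4 (positive without KO 1, KO 3, KO 4, KO 5, WT 4 or WT 7) and -0.1089 to 0.0234 for the Lrrtm1 to Lrrtm2 ratio (positive without KO 8). Without single libraries the count of genes past the threshold was 5 to 6. In the 6 partner lists 0 genes passed the threshold under each alternative, but counts at an unadjusted p under 0.05 moved. With the replicate block they moved to 8 genes of the neurexin ligand list, against 4, and to 6 postsynaptic scaffolds, against 3. With the myelin covariate the count was 7 in the neurexin ligand list.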
